A study of Mus musculus with 16 samples.

Results

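Transcripts of 6 growth factor genes were followed in bone marrow-derived macrophages (BMDMs), macrophages that were differentiated in culture out of marrow cells. Amphiregulin (Areg), epiregulin (Ereg), heparin-binding EGF-like growth factor (Hbegf) and transforming growth factor alpha (Tgfa) encode ligands of the epidermal growth factor receptor (EGFR), and Pdgfa and Pdgfb encode the A and B chains of platelet-derived growth factor (PDGF). The 6 genes were picked by symbol among the 55487 genes of the count table. RNA-sequencing covered 16 samples in 6 groups, all from wild-type Balb/c mice of 8 weeks, female according to the methods of the study. Conditioned medium of 4T1 cells, a mouse mammary tumor line, was given without inhibitor (CM, 3 samples), with 0.5 μM ruxolitinib, an inhibitor of the kinases JAK1 and JAK2 (CM + Rux, 3 samples), or with ruxolitinib and 0.8 μM IKK-16, an inhibitor of the IKK kinases that activate NF-κB (CM + Rux + IKK-16, 3 samples). Plain medium was given without inhibitor (DMEM, 2 samples) or with ruxolitinib at a dose that the sources used here do not state (DMEM + Rux, 3 samples). The CM + Rux samples carry a label of 4 h, and 2 further samples of the same treatment carry a label of 2 h (CM + Rux 2 h). The CM, CM + Rux + IKK-16, DMEM and DMEM + Rux samples carry no label of time, so they are not matched to CM + Rux by a labelled time. The methods of the study give 4 h for RNA of macrophages treated with tumor medium and ruxolitinib. What the 2 h refers to is not stated, and the labels do not say whether replicates were separate cultures or mice, so the p-values measure the spread between these samples.

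All EGFR ligands are made as membrane-bound precursors that proteases of the ADAM family cut from the cell surface. Areg, Tgfa and Egf bind EGFR, Hbegf and Ereg also bind ERBB4, and the neuregulins bind ERBB3 and ERBB4. PDGF chains pair into dimers that are cleaved by proprotein convertases such as furin, and the dimers bind the receptors PDGFRα and PDGFRβ on mesenchymal cells. Macrophages are a known source of EGFR ligands and of PDGF in wounds and tumors, where these factors act on neighbouring epithelial and stromal cells.

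The depth was 18449388 to 46215853 counted fragments per sample. All 7 macrophage markers exceeded 1 CPM in every group, with summed levels of 33814 to 45015 CPM (fragment counts relative to the library size, which was scaled by relative log expression, RLE). Markers of 4T1 or other epithelial cells summed to at most 1.45 CPM, with Krt14 at 0 in every sample, although their sum was higher in CM (0.732 to 1.45 CPM) than in DMEM (0 to 0.118 CPM). Markers of megakaryocytes or platelets, which also make PDGF, summed to 54.1 to 89.2 CPM in CM and to 7.35 to 8.87 CPM in DMEM. Most of that sum was Pf4 (mean 63.7 CPM in CM and 7.14 in DMEM), Ppbp (3.95 and 0.311 CPM) and Itga2b (1.25 and 0.659 CPM) were also higher in CM by mean, and Gp1bb was at 0 in every sample and Gp9 and Gp5 stayed at mean levels of at most 0.0472 CPM in every group. The list of T, NK or innate lymphoid cells summed to 206 to 273 CPM in CM, 95.4 to 149 CPM in DMEM and 347 to 399 CPM in CM + Rux + IKK-16, nearly all of it Il7r, with Ncr1 and Nkg7 at 0 in every sample. Neutrophil markers summed to 1.72 to 3.15 CPM in CM and 0.236 to 0.286 CPM in DMEM. The endothelial list summed to 145 to 210 CPM in CM and 187 to 214 CPM in DMEM. Of its genes, Pecam1 (means of 9.78 and 0.396 CPM) and Cdh5 (0.348 and 0.0965) were higher in CM. Vwf (147 and 175 CPM), Kdr (4.88 and 18.4) and Tie1 (6.19 and 6.97) were lower, and Emcn was at 0.0136 and 0. The part of any of these cells in the results was not tested, and in bulk RNA a change in the share of a cell type cannot be told apart from a change in RNA per cell. Of the 6 genes, 4 passed the filter of 1 CPM on unscaled library sizes in at least 2 samples and were tested among 12372 genes. Ereg and Tgfa did not pass, and Areg passed through 2 samples only, CM + Rux replicate 2 and CM + Rux 2 h replicate 2, so its tests against other groups draw on the values that admitted it and are given as a description. A gene was called changed at an adjusted p under 0.05 (edgeR quasi-likelihood test with Benjamini-Hochberg adjustment over the 12372 genes) and a log2 fold change beyond 0.5.

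**Figure D1:**
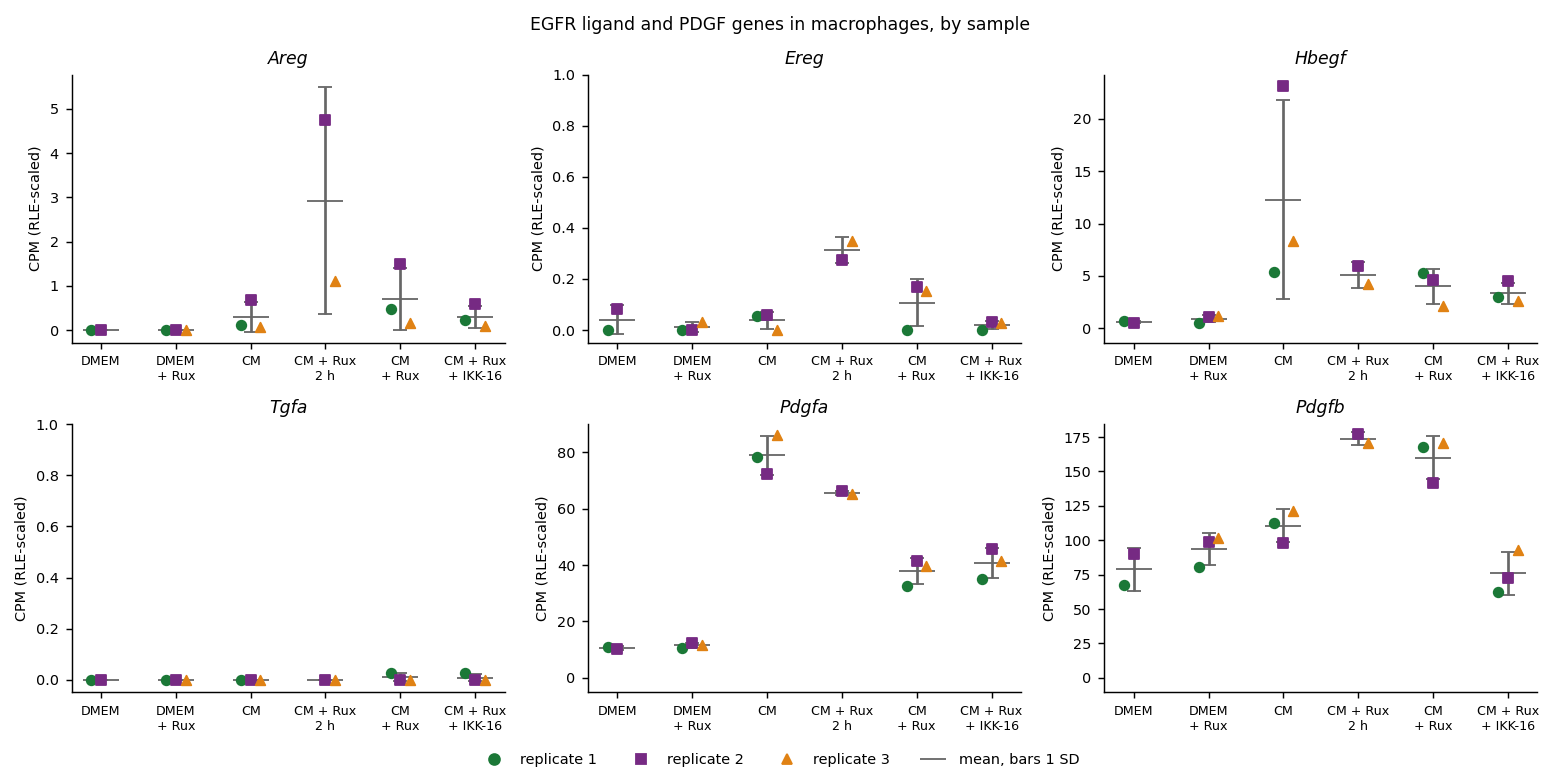
CPM (RLE-scaled, linear axes) of the 6 genes in every sample, by group, with marker shape for the replicate number and bars for the mean and 1 SD. Pdgfa was at 72.2 to 86.1 CPM in CM and at 10.2 to 11.0 CPM in DMEM, Pdgfb was lowest in CM + Rux + IKK-16 and DMEM, the Hbegf mean in CM was pulled up by replicate 2 at 23.1 CPM, and Tgfa stayed at or near 0.

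Ligands of EGFR were at low levels or hardly detected in these macrophages, and the upstream sequence of Areg and Tgfa is shown to set a gene detected in every sample with tumor medium and in none without it beside a gene with 2 fragments in all. Both windows hold the 250 bases before the RefSeq transcription start on the plus strand (GRCm38.p6), with capitals for motifs found by searching both strands. The Areg window is chr5:91139349-91139598, and the Tgfa window is chr6:86194972-86195221.
Areg: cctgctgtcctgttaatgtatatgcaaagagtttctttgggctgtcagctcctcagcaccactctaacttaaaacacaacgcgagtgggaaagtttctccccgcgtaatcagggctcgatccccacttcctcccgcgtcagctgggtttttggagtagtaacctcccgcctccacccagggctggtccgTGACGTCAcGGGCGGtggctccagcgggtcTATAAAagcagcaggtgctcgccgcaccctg
Tgfa: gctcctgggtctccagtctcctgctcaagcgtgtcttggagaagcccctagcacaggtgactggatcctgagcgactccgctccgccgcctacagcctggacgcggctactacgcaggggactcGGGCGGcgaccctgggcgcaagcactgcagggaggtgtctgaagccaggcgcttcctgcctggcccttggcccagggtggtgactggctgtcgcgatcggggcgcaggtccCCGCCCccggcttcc
In the Areg window the capitals mark the cAMP response element TGACGTCA at 61 to 54 bases before the start, the GC box GGGCGG at 52 to 47 bases and the TATA box TATAAA at 31 to 26 bases. In the Tgfa window they mark 2 GC boxes, at 126 to 121 bases and, on the opposite strand, at 15 to 10 bases before the start. Of 32851 RefSeq windows of the same length, 1.55% held TGACGTCA, 12.4% TATAAA and 32.7% GGGCGG. The AP-1 site TGANTCA (6.75% of windows), the STAT site TTCNNNGAA (7.02%) and the κB site, GGG and TTCC with any 3 bases between them (4.65%), had no match in either window.

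Areg (ENSMUSG00000029378, chr5:91139599-91148432, plus strand, GRCm38), a ligand that binds EGFR alone, was not detected without tumor medium. All 5 samples of DMEM and DMEM + Rux had 0 fragments, which allows levels of up to 0.0669 to 0.138 CPM at their depths (3 counts, counting error only). In CM the counts were 2, 23 and 2, which is 0.111, 0.683 and 0.0814 CPM in replicates 1, 2 and 3. In CM + Rux they were 18, 62 and 3, or 0.485, 1.50 and 0.153 CPM. Every CM + Rux sample was thus above the CM sample of the same number, although the groups overlapped. With IKK-16 added the levels were 0.232, 0.581 and 0.0873 CPM, below CM + Rux in each of the 3 replicate numbers. The CM + Rux 2 h samples held the highest level, 4.75 CPM in replicate 2 (172 fragments) and 1.11 CPM in replicate 3 (19 fragments). Replicate 2 had the highest Areg level in each of the 4 groups with tumor medium.

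**Figure D2:**
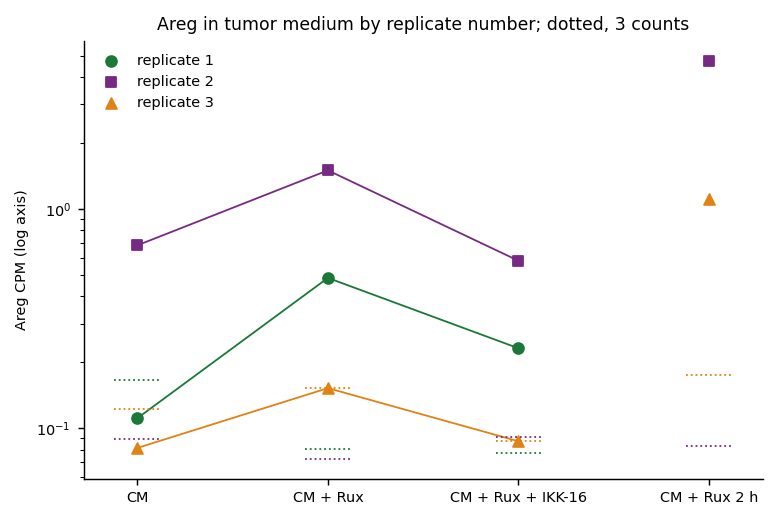
Areg CPM on a log axis in the 4 groups with tumor medium, with lines joining samples of the same replicate number and dotted marks for the level of 3 counts in each sample. In each of the 3 numbers CM + Rux lay above both CM and CM + Rux + IKK-16, and number 2 lay above numbers 1 and 3 in each group.

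Areg passed the filter through CM + Rux replicate 2 and CM + Rux 2 h replicate 2, so the p-values below are given as a description. Against DMEM + Rux, where Areg was at 0, its mean was at least 7.07-fold higher in CM + Rux (bound from 3 counts per sample, edgeR adjusted p = 0.00686). CM + Rux replicate 3 held 3 fragments, the count used for the bound, and by itself allows no fold. Without CM + Rux replicate 2 the bound was 3.16-fold and the gene no longer passed the filter. With no filter on low counts, which kept every gene with any fragment, the adjusted p was 4.12e-06. That value is a description too, since Areg had fragments only in samples with tumor medium. Against DMEM its mean was at least 2.76-fold higher in CM, with an adjusted p of 0.0843 by edgeR. This rested on CM replicate 2, since the other CM samples held 2 fragments each and allow no fold. When replicate numbers entered the model as a block, the rise of Areg in CM was called (adjusted p = 0.000365), beside 21.7% of genes called higher in that fit, and also with no filter (adjusted p = 0.00542) and by DESeq2 (adjusted p = 0.00455). The block also changed the call for CM + Rux against CM, where the log2 fold change was 1.21 (SE 0.95, adjusted p = 0.67) without the block and 1.24 (SE 0.34, adjusted p = 0.0417) with it. With no filter that adjusted p was 0.53. For CM + Rux + IKK-16 against CM + Rux it was -1.38 (SE 0.92, adjusted p = 0.364) without and -1.23 (SE 0.33, adjusted p = 0.0187) with the block. CM + Rux 2 h exceeded CM + Rux by 1.97 (SE 0.82, adjusted p = 0.081) without and by 1.85 (SE 0.30, adjusted p = 0.000506) with the block on the log2 scale, and 13.3% of genes were called higher in the latter fit. With no filter its adjusted p was 0.00579 and by DESeq2 0.127. Between CM + Rux + IKK-16 and CM the difference was -0.17 (SE 1.07), and its sign depended on single samples. All these values rest on at most 172 fragments per sample.

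Ereg (ENSMUSG00000029377, chr5:91074622-91093646, plus strand), the neighbour of Areg with 45952 bases between them, had 34 fragments in all 16 samples. They fell in 10 samples, and 16 of them lay in the 2 samples of CM + Rux 2 h (0.276 and 0.350 CPM), the highest levels of the gene. CM + Rux held 0, 7 and 3 fragments, CM 1, 2 and 0, CM + Rux + IKK-16 0, 1 and 1, DMEM 0 and 2, and DMEM + Rux 0, 0 and 1. No comparison was made at this depth. Tgfa (ENSMUSG00000029999, chr6:86195223-86275719, plus strand), the ligand that many epithelial cells make, had 2 fragments in the series, 1 in CM + Rux replicate 1 and 1 in CM + Rux + IKK-16 replicate 1.

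Hbegf (ENSMUSG00000024486, chr18:36504927-36515805, minus strand) was raised in tumor medium. DMEM held 0.679 and 0.532 CPM, and CM held 5.39, 23.1 and 8.30 CPM. All CM samples were above DMEM, by 20.2-fold (log2 4.33, SE 0.67, edgeR adjusted p = 7.62e-05). Without CM replicate 2, which stood apart at 23.1 CPM, the log2 difference was 3.48 (adjusted p = 6.15e-05). CM + Rux held 5.31, 4.65 and 2.14 CPM, just below the lowest CM sample. The decrease from CM was -1.59 on the log2 scale (SE 0.46, adjusted p = 0.0676) and was called with the replicate block (-1.48, SE 0.35, adjusted p = 0.0141). It was smaller without CM replicate 2, at -0.74 (adjusted p = 0.43). With IKK-16 added the levels were 2.96, 4.49 and 2.56 CPM, within the range of CM + Rux (log2 -0.31, SE 0.47, adjusted p = 0.718). Both inhibitors together lowered Hbegf against CM by 3.74-fold (log2 -1.90, SE 0.46, adjusted p = 0.00945), a call that was lost without CM replicate 2 (log2 -1.05, adjusted p = 0.0699).

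Ruxolitinib did not return Hbegf to the level without tumor medium. DMEM + Rux held 0.508, 1.07 and 1.20 CPM, overlapping with DMEM (log2 0.64, SE 0.74, adjusted p = 1). All CM + Rux samples were above DMEM + Rux, by 4.28-fold (SE 0.53 on the log2 scale, adjusted p = 0.00318). The CM + Rux 2 h samples, at 5.99 and 4.20 CPM, overlapped with CM + Rux (log2 0.32, SE 0.52, adjusted p = 0.652). Ordered by mean, the groups ran from CM (12.3 ± 9.49 CPM, SD, n = 3) through CM + Rux 2 h (5.10 ± 1.26, n = 2), CM + Rux (4.03 ± 1.67, n = 3) and CM + Rux + IKK-16 (3.34 ± 1.02, n = 3) to DMEM + Rux (0.925 ± 0.367, n = 3) and DMEM (0.605 ± 0.104, n = 2). Of the neighbours in this order, only CM + Rux + IKK-16 and DMEM + Rux had ranges that did not overlap.

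Pdgfa (ENSMUSG00000025856, chr5:138976014-138997370, minus strand), the chain that signals mainly through PDGFRα, rose in tumor medium and was lowered by ruxolitinib. Its level was 11.0 and 10.2 CPM in DMEM and 78.4, 72.2 and 86.1 CPM in CM. The groups were far apart, with a rise of 7.40-fold (log2 2.89, SE 0.14, edgeR adjusted p = 2.56e-09). CM + Rux held 32.6, 41.5 and 39.6 CPM, all below CM, a decrease of 2.08-fold (log2 -1.06, SE 0.11, adjusted p = 9.85e-05). IKK-16 on top of ruxolitinib left the levels at 35.1, 45.7 and 41.6 CPM, overlapping with CM + Rux (log2 0.11, SE 0.11, adjusted p = 0.568). Both inhibitors together lowered Pdgfa against CM by 1.93-fold (log2 -0.95, SE 0.11, adjusted p = 5.06e-05).

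The effect of ruxolitinib on Pdgfa differed between the samples in CM and those in DMEM. The dose in DMEM + Rux is not stated, and its samples, like those of CM and DMEM, carry no label of time. A difference in dose or time thus cannot be told apart from one of the medium. DMEM + Rux held 10.5, 12.2 and 11.8 CPM, overlapping with DMEM (log2 0.12, SE 0.13, adjusted p = 1), and the effect in CM was more negative than that in DMEM by 1.17 on the log2 scale (interaction -1.17, SE 0.17, adjusted p = 0.0118). The same interaction was -2.24 (SE 0.87, adjusted p = 0.39) for Hbegf and 0.28 (SE 0.22, adjusted p = 0.868) for Pdgfb. CM + Rux remained 3.28-fold above DMEM + Rux (log2 1.71, SE 0.12, adjusted p = 2.08e-08). The CM + Rux 2 h samples, at 66.2 and 65.1 CPM, were above every CM + Rux sample, by 1.73-fold (log2 0.79, SE 0.12, adjusted p = 0.000196), and below every CM sample, a difference that was not tested. By mean, Pdgfa was highest in CM (78.9 ± 6.97 CPM, SD, n = 3), then in CM + Rux 2 h (65.7 ± 0.739, n = 2), CM + Rux + IKK-16 (40.8 ± 5.31, n = 3), CM + Rux (37.9 ± 4.68, n = 3), DMEM + Rux (11.5 ± 0.915, n = 3) and DMEM (10.6 ± 0.581, n = 2). Within this order, CM + Rux + IKK-16 overlapped with CM + Rux, and DMEM + Rux with DMEM.

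Pdgfb (ENSMUSG00000000489, chr15:79995874-80014977, minus strand), the chain that binds both PDGF receptors, was the member with the highest CPM in every group and took another course. DMEM held 67.8 and 90.1 CPM, and CM held 112.6, 97.8 and 121 CPM. All CM samples were above DMEM, but the rise of 1.40-fold (log2 0.49, SE 0.17, edgeR adjusted p = 0.0214) stayed under the fold threshold. In CM + Rux the levels were 168, 142 and 171 CPM, all above CM. This rise of 1.45-fold (log2 0.53, SE 0.15) had an adjusted p of 0.0584 by edgeR and was called with the replicate block (log2 0.54, SE 0.12, adjusted p = 0.00871). IKK-16 lowered Pdgfb to 62.4, 72.7 and 93.2 CPM, all below CM + Rux (log2 -1.07, SE 0.15, adjusted p = 0.000508).

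With both inhibitors Pdgfb was also lower than in CM (log2 -0.54, SE 0.15, adjusted p = 0.0182), close to the fold threshold. That call was lost without CM replicate 3 (-0.47), without CM + Rux + IKK-16 replicate 1 (-0.41) or 2 (-0.51, with an adjusted p just over the threshold), and with total counts in place of RLE scaling (-0.44). DMEM + Rux held 80.7, 98.7 and 101.8 CPM, overlapping with DMEM (log2 0.25, SE 0.17, adjusted p = 1). CM + Rux exceeded DMEM + Rux by 1.71-fold (log2 0.77, SE 0.15, adjusted p = 0.000379), which fell to 0.48 and below the fold threshold with total counts. The CM + Rux 2 h samples, at 177 and 171 CPM, were just above the range of CM + Rux and were not called (log2 0.12, SE 0.16, adjusted p = 0.593). Group means were 174 ± 4.48 CPM (SD, n = 2) in CM + Rux 2 h, 160.2 ± 15.9 (n = 3) in CM + Rux, 110.6 ± 11.9 (n = 3) in CM, 93.7 ± 11.4 (n = 3) in DMEM + Rux, 79.0 ± 15.7 (n = 2) in DMEM and 76.1 ± 15.7 (n = 3) in CM + Rux + IKK-16. From CM downwards, each group overlapped with its neighbours below it in this order.

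**Figure D3:**
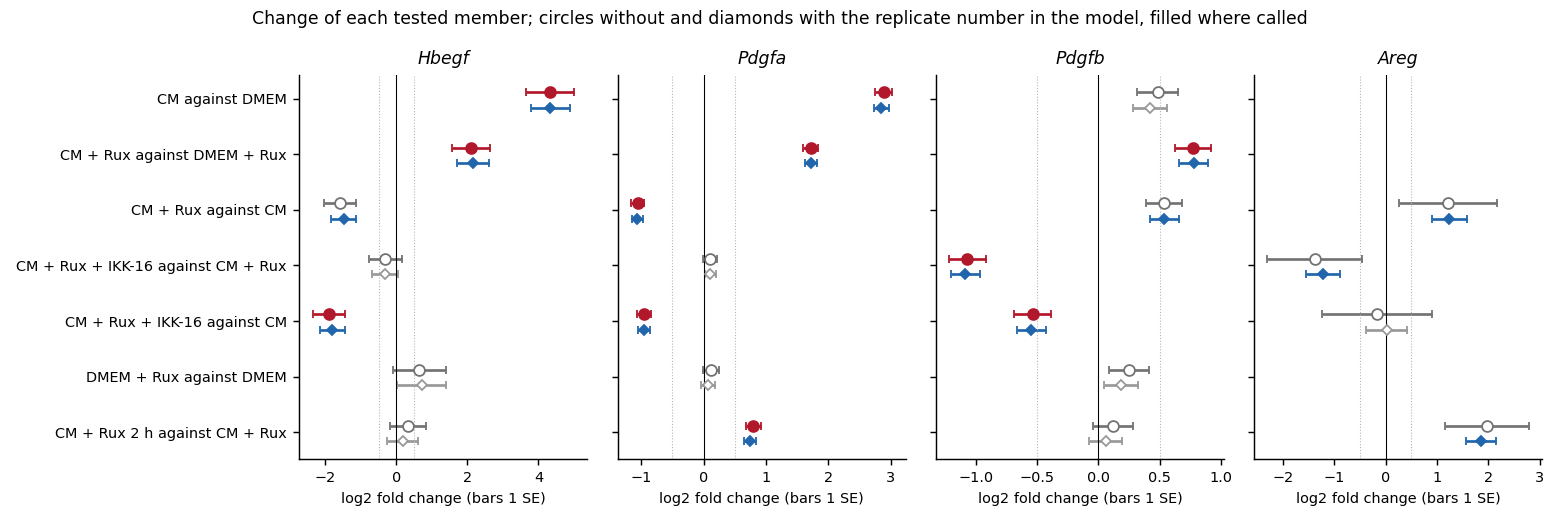
Log2 fold change with 1 SE (horizontal axis) of Hbegf, Pdgfa, Pdgfb and Areg in 7 comparisons, without (circles) and with (diamonds) the replicate number in the model, filled where called, with dotted lines at 0.5 either way. Contrasts of Areg against groups at 0 are left out. IKK-16 on top of ruxolitinib moved Pdgfb (-1.07) but left Pdgfa at 0.11, and the Areg points are filled only with the replicate number.

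Counted over the 6 genes, 2 were called higher in CM than in DMEM (Hbegf and Pdgfa), beside 20.9% of all genes tested. Pdgfa alone was called lower in CM + Rux than in CM, beside 2.13% of all genes called lower, and no member was called higher, beside 1.2%. With the replicate block the count for that comparison was 4 members, Hbegf and Pdgfa lower (3.56% of genes) and Areg and Pdgfb higher (2.47%), although Areg had passed the filter through CM + Rux. IKK-16 on top of ruxolitinib lowered Pdgfb only, beside 3.66% of genes called lower, and with the block also Areg (5.04%), which had passed the filter through CM + Rux. Against CM, both inhibitors lowered Hbegf, Pdgfa and Pdgfb, beside 6.13% of genes. In CM + Rux against DMEM + Rux, Hbegf, Pdgfa and Pdgfb were called higher, beside 22.3% of genes, as was Areg, which had passed the filter through CM + Rux. Ruxolitinib without tumor medium changed 0 members by edgeR and by DESeq2, and the unadjusted p was above 0.05 for Hbegf, Pdgfa and Pdgfb (Areg was at 0 in both groups), beside 0% of genes called higher and 0.97% lower. The interaction was called for Pdgfa, beside 0.178% of genes with a negative and 0.234% with a positive interaction, and CM + Rux 2 h was above CM + Rux for Pdgfa, beside 12.6% of genes called higher. Comparisons that share the CM or the CM + Rux samples are not independent of each other.

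The balance of the PDGF chains was compared within each sample as the ratio of Pdgfb to Pdgfa fragments per kilobase of exon, which does not depend on the scaling between samples. This measure was chosen after the values of both genes had been seen. The ratio was 4.60 and 6.61 in DMEM and 5.78, 6.05 and 6.46 in DMEM + Rux. It was 1.08, 1.02 and 1.06 in CM, near equal levels of both transcripts. CM + Rux held ratios of 3.86, 2.56 and 3.23, CM + Rux + IKK-16 of 1.33, 1.19 and 1.68, and CM + Rux 2 h of 2.01 and 1.97. CM did not overlap with any other group, and CM + Rux lay between CM + Rux + IKK-16 and DMEM + Rux without overlap with either. An exact permutation test (two-sided) gave p = 0.1 for CM against DMEM, CM + Rux against CM and CM + Rux + IKK-16 against CM + Rux, the smallest p that these group sizes allow (adjusted p = 0.14 over 7 comparisons), so the threshold of 0.05 could not be reached. The mean ratio was 1.05 ± 0.0315 (SD, n = 3) in CM, 3.22 ± 0.650 (n = 3) in CM + Rux, 1.40 ± 0.251 (n = 3) in CM + Rux + IKK-16 and 5.60 ± 1.42 (n = 2) in DMEM.

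**Figure D4:**
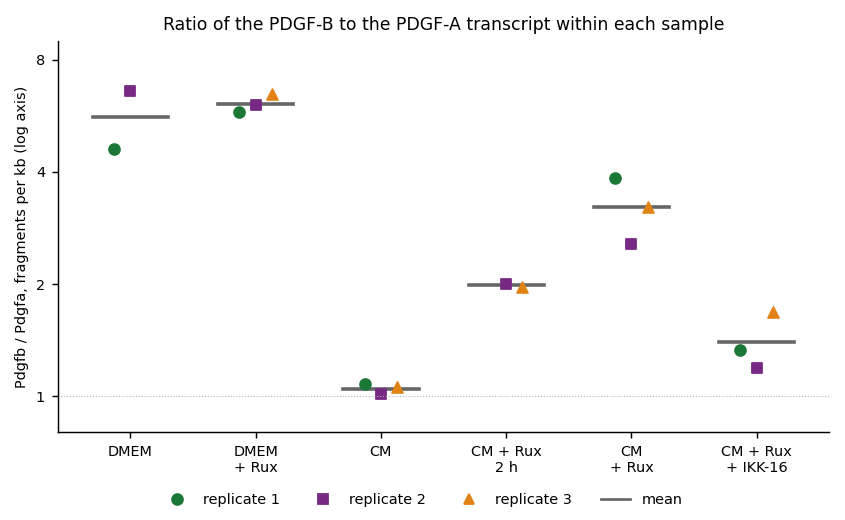
Ratio of Pdgfb to Pdgfa fragments per kilobase of exon in every sample, by group, on a log axis, with lines for the group means. The ratio was near 1 in CM (mean 1.05), 3.22 in CM + Rux, 1.40 in CM + Rux + IKK-16 and above 4 in every sample without tumor medium.

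Among the other ligands of both families, Nrg1 (neuregulin 1, a ligand of ERBB3 and ERBB4) changed the most. Its level was 0.148 and 0.0818 CPM in DMEM and 97.0, 124 and 120 CPM in CM, and the groups were far apart (log2 9.84, SE 0.62, edgeR adjusted p = 2.32e-08, from at most 5 fragments per DMEM sample). CM + Rux held 13.4, 23.8 and 27.0 CPM, all below CM (log2 -2.42, SE 0.29, adjusted p = 0.000266). With IKK-16 added, Nrg1 was at 8.37, 16.6 and 14.1 CPM (log2 -0.71 against CM + Rux), which was called only with the replicate block (log2 -0.71, SE 0.18, adjusted p = 0.0105). At 2 h it was at 3.81 and 2.80 CPM, below every CM + Rux sample (log2 -2.65, SE 0.39, adjusted p = 0.000156). Per kilobase of exon, the mean level of Nrg1 in CM was 7.36 CPM, against 2.54 for Hbegf, 0.240 for Areg, 25.3 for Pdgfa and 26.6 for Pdgfb. Nrg1 passed the filter only through samples with tumor medium, so its call against DMEM is a description. Egf itself was lower in CM (3, 7 and 4 fragments, 0.179 ± 0.0249 CPM, SD, n = 3) than in DMEM (23 and 22 fragments, 0.789 ± 0.156, n = 2), with a log2 fold change of -2.07 (SE 0.55, adjusted p = 0.00482). It passed the filter only through samples without tumor medium, so this call is a description. Pdgfc was at 1.52 to 5.63 CPM in every sample and was called in no comparison. The other 6 ligand genes on the list (Btc, Epgn, Nrg2, Nrg3, Nrg4 and Pdgfd) did not pass the filter, with a highest group mean of 0.536 CPM, that of Epgn in CM, and Nrg3 had no fragment in any sample.

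**Figure D5:**
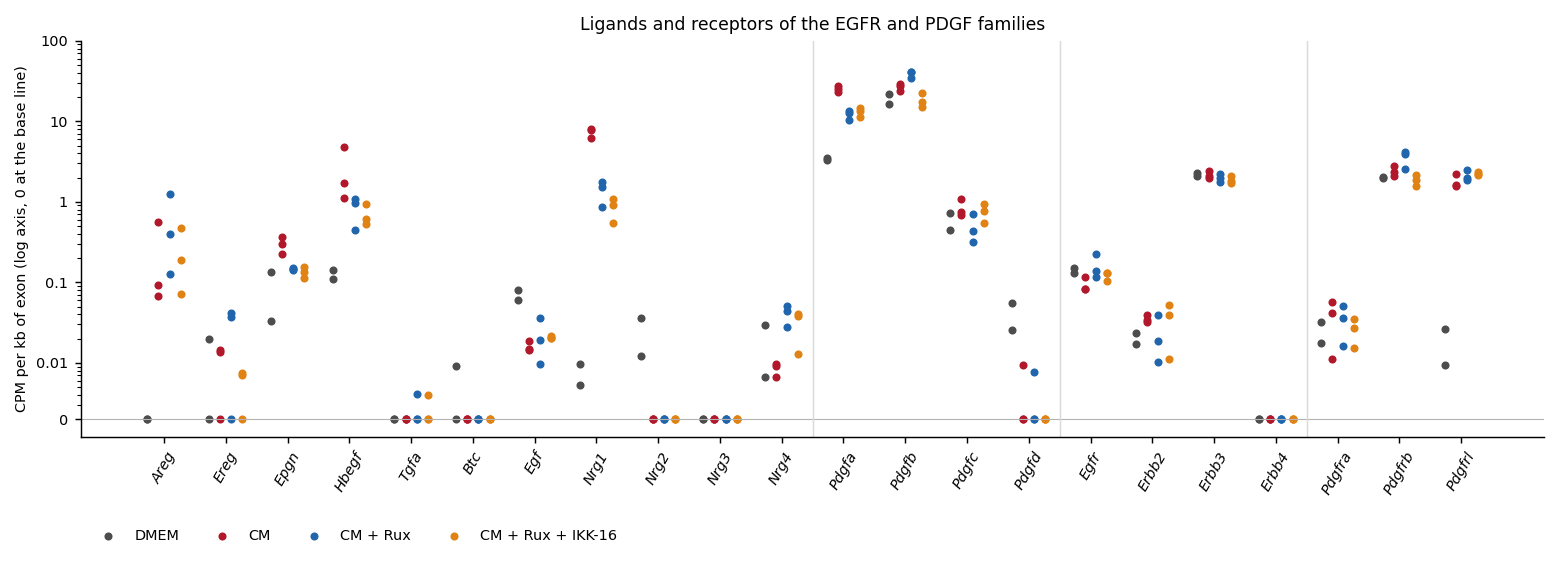
CPM per kilobase of exon (log axis, 0 drawn at the base line) of ligands and receptors of both families in each sample of 4 groups, with colours for the groups. Pdgfa, Pdgfb, Nrg1 and Hbegf had the highest ligand levels in CM (means of 25.3, 26.6, 7.36 and 2.54), and of the signalling receptors only Erbb3 and Pdgfrb exceeded 1 in every sample shown.

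Among the signalling receptors, Erbb3 and Pdgfrb had the highest levels, and the others were low or absent. Egfr was at 0.936 to 2.56 CPM in all samples and was called only in CM + Rux against DMEM + Rux (log2 0.68, SE 0.28, adjusted p = 0.0457). Its mean was 1.07 ± 0.228 CPM (SD, n = 3) in CM, 1.81 ± 0.660 (n = 3) in CM + Rux and 1.58 ± 0.149 (n = 2) in DMEM. Erbb2 had group means of at most 0.183 CPM, and Erbb4, the other receptor of Hbegf, had no fragment in any sample. Erbb3, which binds neuregulins, was at 12.9 ± 1.44 CPM in CM and 13.0 ± 0.765 in DMEM (log2 -0.02, SE 0.16, adjusted p = 0.924), and was called only as lower in CM + Rux 2 h than in CM + Rux (log2 -0.71, SE 0.17, adjusted p = 0.00407). Pdgfra, the receptor that binds the A chain, had group means of at most 0.365 CPM.

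Pdgfrb, the receptor of the B chain, was at 12.7, 11.3 and 15.1 CPM in CM, at 21.6, 14.2 and 22.7 CPM in CM + Rux and at 8.50, 11.7 and 10.2 CPM in CM + Rux + IKK-16. CM + Rux was above IKK-16-treated samples without overlap (log2 -0.94, SE 0.17, adjusted p = 0.00315). The rise from CM to CM + Rux was 0.58 on the log2 scale (SE 0.17, adjusted p = 0.0791) and was called with the replicate block (0.58, SE 0.15, adjusted p = 0.0207). Pdgfrb also stands in the list of fibroblast markers, whose sum was 31.8 to 33.9 CPM in CM + Rux and 16.1 to 28.4 CPM in CM + Rux + IKK-16, so that Pdgfrb itself is part of that difference. Pdgfrl, a receptor-like gene without a kinase domain, rose from a mean of 0.0557 CPM in DMEM to 5.69 CPM in CM (log2 6.69, SE 0.47, adjusted p = 5.74e-08). It passed the filter only through samples with tumor medium, so this call is a description.

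Of 15 sheddases, convertases and their regulators, 12 were tested. In CM against DMEM 5 rose and 2 fell (20.9% and 24.1% of all genes), with a median log2 fold change of 0.29 beside -0.00496 over all genes. Timp3, an inhibitor of these sheddases (1.93), Furin, the convertase that cleaves PDGF chains (1.92), and Adam8 (1.81) rose the most. Timp3 passed the filter only through samples with tumor medium, so its rise is a description. Also raised were Rhbdf1 and Rhbdf2, which carry ADAM17 to the cell surface (1.80 and 1.64), and Adam17, the main sheddase of Areg, Hbegf and Tgfa, fell (-0.88, SE 0.09, adjusted p = 1.32e-06). In CM + Rux against CM, Adam17 had an adjusted p of 0.0253 with a log2 fold change of 0.34, under the fold threshold, and the others had none under 0.05. IKK-16 on top lowered Rhbdf1 (-0.88) and Rhbdf2 (-0.52).

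Adaptors and effectors downstream of the receptors comprised 14 genes, all tested, of which 4 rose and 3 fell in CM, shares near those of all genes (20.9% and 24.1%). Gab1, a docking protein of EGFR, rose by 2.82 on the log2 scale, and Nck2 fell by 1.22. The 12 inhibitors of these receptors, all tested, gave 2 rises and 3 falls, again near the shares of all genes (20.9% and 24.1%). Among the falls, Lrig1 (-2.10) and Lrig3 (-1.87) passed the filter only through samples without tumor medium, so their calls are a description. Errfi1, a feedback inhibitor that binds the EGFR kinase, rose from 10.9 and 10.5 CPM in DMEM to 471, 864 and 410 CPM in CM (log2 5.76, SE 0.71, adjusted p = 9.99e-06). Its level in CM + Rux was 189.5, 541 and 182 CPM (log2 -0.94 against CM, SE 0.48, adjusted p = 0.391), which was called with the replicate block (-1.03, SE 0.25, adjusted p = 0.0165). In CM + Rux + IKK-16 it was 68.9, 227 and 83.6 CPM (log2 -1.27 against CM + Rux, SE 0.48, adjusted p = 0.0966), again called with the block (-1.27, SE 0.25, adjusted p = 0.00254). IKK-16 on top of ruxolitinib also lowered Ptpn2 (-0.50, adjusted p = 0.0431), a phosphatase that acts on EGFR. As for Areg, replicate 2 held the highest Errfi1 level in each of these 3 groups.

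Of 22 genes known to respond to ERK, the kinase that these receptors activate, 20 were tested. In CM 12 rose and 2 fell (20.9% and 24.1% of all genes), with a median log2 fold change of 1.05 beside -0.00496 over all genes, and Ier3 (5.54), Dusp5 (5.22) and Phlda1 (4.06) rose the most. Many other signals also induce these genes. Dusp6, a phosphatase that acts on ERK, was called in CM + Rux against CM (log2 -1.37, SE 0.31, adjusted p = 0.0217), and the other 19 were not. Of all genes, 2.13% were called lower and 1.2% higher there. IKK-16 on top of ruxolitinib raised 2, Jun (0.54) and Dusp4 (0.51), and lowered 2, Ier2 (-1.26) and Phlda1 (-1.11), beside 4.07% and 3.66% of all genes.

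Over all 79 genes on these lists, which leave out the 6 growth factor genes above, 65 were tested. In CM 25 were called higher and 11 lower than in DMEM (20.9% and 24.1% of all genes). These counts include Nrg1, Pdgfrl and Timp3 as higher, which passed the filter only through samples with tumor medium. They also include Egf, Lrig1 and Lrig3 as lower, which passed only through samples without it. The part of these genes in the counts is a description. Ruxolitinib in CM gave 0 higher and 2 lower (1.2% and 2.13% of all genes), and with the replicate block 2 higher and 6 lower (2.47% and 3.56%). IKK-16 on top gave 2 higher and 6 lower (4.07% and 3.66%), and both inhibitors against CM 3 higher and 17 lower (6.6% and 6.13%). CM + Rux against DMEM + Rux gave 26 higher and 12 lower (22.3% and 25%), where the same limit holds for Nrg1, Pdgfrl, Egf, Lrig1 and Lrig3. CM + Rux 2 h against CM + Rux gave 11 higher and 9 lower (12.6% and 10.7%). For ruxolitinib in DMEM 0 list genes were called by edgeR (0% of all genes higher and 0.97% lower) and 0 by DESeq2, and 1 had an unadjusted p under 0.05 by edgeR.

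Over the 16 samples the profiles of Hbegf and Pdgfa were the most alike of the tested members, and Pdgfb was the least like the others. Pearson's r of log2 CPM, given as a description over samples that share treatments, was 0.91 between Hbegf and Pdgfa, 0.71 between Areg and Hbegf, 0.70 between Areg and Pdgfa, and 0.39 to 0.55 between Pdgfb and the other members. The genes most like Pdgfa were Hnrnpll (r = 0.98), Sphk1 (0.97), the kinase that makes sphingosine 1-phosphate, and Ifnar1 (0.97), a chain of the type I interferon receptor. Hbegf was most like Ndel1 (0.97), Ell (0.95) and Pgf (0.95), the placental growth factor of the VEGF family. Pgf was at 21.4 ± 9.08 CPM (SD, n = 3) in CM, 2.70 ± 1.79 (n = 3) in CM + Rux and 0.285 ± 0.0562 (n = 2) in DMEM. For Pdgfb the closest were Appl1 (0.90), Dlgap4 (0.89) and Mtdh (0.88), all higher in CM + Rux than in CM + Rux + IKK-16, with means of 86.9, 105.5 and 216 CPM against 58.2, 68.7 and 146 CPM. Areg was closest to Sgtb (0.96), Asf1a (0.96) and Apaf1 (0.95), each with its highest group mean in CM + Rux 2 h. All these genes were chosen by likeness over the same 16 samples, so levels that follow those of the member come from the choice.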

How the data were processed

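Per the labels and the methods of the study, RNA of 16 BMDM samples was sequenced as stranded mRNA libraries. The authors trimmed reads with Trimmomatic 0.33, aligned them to GRCm38 with HISAT2 2.1.0 and deposited whole-number counts of fragments per gene from featureCounts 1.6.2 (Ensembl 100, mapping quality of at least 10). Symbols and positions were taken from GENCODE M21 of the same build (Ensembl 96), which matched 55141 of 55487 identifiers. Counts were scaled by RLE and genes over 1 CPM of the unscaled library size in at least 2 samples were tested in 1 model of 6 groups with edgeR 4.0.16 (limma 3.58.1, R 4.3.3). RLE moved the median gene by 0.31 (log2) in CM against DMEM, 0.30 in CM + Rux against DMEM + Rux and -0.11 in CM + Rux + IKK-16 against CM, relative to total counts, and changes are given relative to that shift. A fold against a group at 0 was computed against 3 counts per sample. The model was tested on simulated data. The members and lists were chosen with earlier results of these data known.

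Groups and replicate numbers come from the labels. Deviations from the group means correlated between samples of the same number (median r = 0.319 over 35 pairs, 34 of them over 0.1, and over 0.1 in every pair of the comparisons with 3 pairs), so the numbers were taken to pair the samples. Other pairs had a median of -0.122, which is not separate evidence, since deviations sum to 0 within a group. The main model left the numbers out, and the replicate block brought them in as an alternative. The labels do not say what a number stands for. No samples were copies (replicate pairs differed with a chi-square of 14.2 to 54.4 for each degree of freedom). Named were all 6 members, the receptors, at most 3 called genes with the largest change per list and comparison, and the 3 genes most like each tested member (log2 CPM, prior count 2). Rhbdf1 and Rhbdf2 in CM, Adam17, and Errfi1 and Nrg1 where not called, were named after their values were seen. Alternatives were TMM, no filter, filterByExpr, the replicate block, DESeq2 1.42.0, only the groups compared, and each sample left out. Total counts without scaling and leaving out the 2 h samples were added after seeing the data. Upstream windows are from RefSeq, whose table held 3 of the 6 members.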

Additional observations from a re-analysis of the deposited data

Results flagged for a closer look

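The effect of ruxolitinib on Pdgfa differed between the media, by -1.17 on the log2 scale (interaction of edgeR, adjusted p = 0.0118), with a decrease of 2.08-fold in CM and a log2 difference of 0.12 in DMEM. No dose is stated for DMEM + Rux, and no time is on the labels of DMEM + Rux, DMEM or CM. A difference in dose or time thus cannot be told apart from one of the medium. Every CM + Rux sample was below every CM sample, while DMEM + Rux and DMEM overlapped. Over 19 alternatives the value lay between -1.25 and -1.07, with an adjusted p of at most 0.0447. No other member had a called interaction, and the test of outlying samples did not apply to groups of 2 and 3.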

How the results depend on the processing

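In CM + Rux against CM the count of called members was 1, and 3 without a filter on low counts, 4 with the replicate block, 3 with DESeq2, and 1 to 2 with single samples left out. Shares of all genes called are given here only for the main fit and the block. Counts under the other alternatives, for members and list genes alike, thus have no such share beside them and are a description. Without the filter the interaction gave 2 and CM + Rux 2 h against CM + Rux 2, and the block gave 2 for the latter and 2 for IKK-16 on top of ruxolitinib. In the other comparisons the block changed 1 further call, Areg in CM against DMEM, which was also called with no filter and by DESeq2. Dropping the filter and DESeq2 called Hbegf (adjusted p = 0.000215 and 0.0117) and Pdgfb (0.0019 and 0.0145) in CM + Rux against CM, as did leaving out CM replicate 1 for Hbegf (0.0237) and CM + Rux replicate 2 for Pdgfb (0.0438), and the cause was not tested. The Pdgfb rise in CM passed the fold threshold without CM replicate 2 (0.57) or DMEM replicate 2 (0.70) and was 0.18 with total counts. For Areg in CM + Rux + IKK-16 against CM the sign turned with the block (0.016), without CM replicate 2 (1.61) and without CM + Rux + IKK-16 replicate 3 (0.25), with values of -1.02 to 1.61 when single samples were left out. List genes called in CM + Rux against CM were 2, and 8 without the filter or with the block, 6 with DESeq2, 1 with only the groups compared and 1 to 5 with single samples left out. For IKK-16 on top of ruxolitinib they were 8, and 13 without the filter and 3 to 11 with single samples left out. For the interaction they were 0, and 2 without the filter and 3 with the block, and for both inhibitors against CM they were 20, and 10 to 22 with single samples left out. All called changes of Pdgfa kept their direction and call under every alternative run. Of the single members' values under alternatives, 378 kept direction and call, 18 gained and 6 lost a call, and 3 changed sign. Depth limits Areg, Ereg and Tgfa, where 3 fragments are 0.0669 to 0.175 CPM.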
